A study of Mus musculus with 12 samples.

Results

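The 10 genes described here encode the muscle enzymes that take glucose 6-phosphate to lactate: Gpi1, Pfkm, Aldoa, Tpi1, Gapdh, Pgk1, Pgam2, Eno3, Pkm and Ldha. They are a set of the pathway's muscle enzymes picked with earlier results of these data known, and their rows were found by gene name among the 56162 features of the deposited count and FPKM tables (FPKM is a level that scales a gene's fragments to its length and to the library total). A member name stood on 11 rows. The extra row, a second Aldoa model at chromosome 7, 126800790 to 126809108, held 38 reads in a single library and none elsewhere, and Aldoa below means the main gene.

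Glycolysis splits glucose into pyruvate in the cytosol and yields ATP without oxygen, and lactate dehydrogenase then turns pyruvate into lactate so that the pathway can go on. In skeletal muscle the fast, Myh4-expressing type IIb fibres are known for high glycolytic capacity, and the slow, Myh7-expressing type I fibres for oxidative metabolism. Several steps are carried by muscle isoforms (Pfkm, Pgam2, Eno3), while lactate dehydrogenase is a tetramer of the subunits encoded by Ldha, which prevails in fast muscle, and Ldhb, which prevails in heart and slow muscle.

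The 12 RNA-seq libraries came from myofibres of male C57BL/6J mice and fell into 4 groups of 3: type I fibres from untrained and from trained mice, and type IIb fibres from untrained and from trained mice. The labels name no genetic change and give all mice the age of 8 weeks, without saying whether this was before or after training. Trained mice ran on a treadmill for 60 min a day at 12 to 16 m/min, on 5 days a week over 6 weeks, and tissue was taken 3 days after their last session. Type I fibres were isolated from the soleus with 90 min of collagenase (2 mg/ml), and type IIb fibres from the extensor digitorum longus with 60 min, so fibre type, muscle and digestion time cannot be told apart. Each fibre was cut into 2 pieces, of which the first was typed by myosin heavy chain and the other went into a SMART-Seq HT library. The labels tie no library to a separate animal, so any p-value speaks of the spread among these libraries, which may be technical. A level here is a share of a library's RNA, so more of a transcript per fibre and less of the other RNA cannot be told apart.

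Libraries held 8026397 to 24995288 counted reads and 3636 to 14428 genes with at least 10 reads, and mitochondrially encoded genes took 5.86 to 34.7% of reads. The main myosin transcript matched the labels: Myh7 made up 80.5 to 99.8% of the reads of the 4 adult myosin heavy chain genes in type I libraries, and Myh4 at least 99.7% in type IIb libraries. Fast myosin reads were present in some type I libraries. Myh2 (type IIa) reached 10.5% and Myh1 (type IIx) 8.92% in untrained ones, and Myh1 reached 8.04% in trained ones. Their part in the members' levels was not tested. Markers of other cells differed between libraries. The summed level of 10 endothelial markers was 7.77 to 614 CPM (reads scaled to a common library total) in untrained type I, 1.24 to 29.5 in trained type I and 0.105 to 111 in trained type IIb libraries, and all 10 were at 0 in untrained type IIb libraries. The summed level of 6 fibroblast markers was 19.9 to 8825 CPM in untrained type I libraries and at most 0.166 CPM in untrained type IIb libraries. In trained mice the fibre types overlapped, at 0.296 to 115 CPM in type I and 0.105 to 167 CPM in type IIb libraries. The part of these cells in the results was not tested directly; counts without the 3 libraries richest in endothelial markers (untrained type I replicates 1 and 3, trained type IIb replicate 3) are given beside them.

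Start-site sequences are shown for 4 genes on which the results turn. Pgam2 and Eno3 are muscle isoforms, as is Pfkm, which is not shown. Ldha and Ldhb are the lactate dehydrogenase pair, whose transcripts ran in opposite directions between fibre types. Each sequence runs 5′ to 3′ along the gene's own strand, from 250 bases before to 50 bases after an annotated RefSeq start (GRCm38.p6). They lie at chr11:5803747-5804046 (Pgam2, minus strand), chr11:70656926-70657225 (Eno3, plus), chr7:46845554-46845853 (Ldha, plus) and chr6:142507908-142508207 (Ldhb, minus). Capitals mark matches on either strand to CAGCTG (an E-box form bound by myogenic factors), ACGTG (the core of the hypoxia response element) or the MEF2 consensus, the site of a muscle transcription factor family.
Pgam2: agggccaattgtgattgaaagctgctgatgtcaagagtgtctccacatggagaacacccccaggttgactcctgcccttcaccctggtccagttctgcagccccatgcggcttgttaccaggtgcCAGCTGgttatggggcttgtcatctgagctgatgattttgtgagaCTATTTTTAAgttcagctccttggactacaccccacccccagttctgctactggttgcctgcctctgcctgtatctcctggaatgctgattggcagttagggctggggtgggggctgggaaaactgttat
Eno3: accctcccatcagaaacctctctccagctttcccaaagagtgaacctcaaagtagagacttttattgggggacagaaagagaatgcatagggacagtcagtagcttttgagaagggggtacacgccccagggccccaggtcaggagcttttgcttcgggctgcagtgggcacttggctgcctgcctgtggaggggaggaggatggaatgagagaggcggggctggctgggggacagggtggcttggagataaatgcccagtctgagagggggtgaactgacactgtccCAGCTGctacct
Ldha: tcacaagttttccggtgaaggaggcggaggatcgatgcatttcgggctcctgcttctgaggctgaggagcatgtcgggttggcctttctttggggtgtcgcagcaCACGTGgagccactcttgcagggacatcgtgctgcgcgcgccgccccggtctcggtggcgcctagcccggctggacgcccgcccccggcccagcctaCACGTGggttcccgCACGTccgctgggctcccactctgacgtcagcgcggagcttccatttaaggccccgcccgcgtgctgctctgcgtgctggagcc
Ldhb: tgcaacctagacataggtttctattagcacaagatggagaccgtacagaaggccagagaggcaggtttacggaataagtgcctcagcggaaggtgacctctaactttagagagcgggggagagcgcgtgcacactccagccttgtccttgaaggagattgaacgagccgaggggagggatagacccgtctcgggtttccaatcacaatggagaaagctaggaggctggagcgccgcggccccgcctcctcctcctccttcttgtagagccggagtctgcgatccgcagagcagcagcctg

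Pgam2 held the CAGCTG letters and, 80 bases before its start, the only MEF2 match in the members' 17 annotated promoters, against 1.86% of all 32817 promoters in the table. Eno3 held CAGCTG 38 bases after its start. The Ldha promoter shown held 5 ACGTG matches, of which 4 are the 2 strands of a pair of CACGTG hexamers, and the other annotated Ldha promoter (chr7:46846832-46847131) held 0 matches to any of these motifs. Ldhb held none of these letters in this window. CAGCTG stood in 5 of the 17 promoters, against 16.3% of all promoters, and these belong to Gpi1, Aldoa, Pgam2, Eno3 and Pkm. ACGTG stood in 8 of the 17, against 19.6% of all promoters, and these belong to 6 members (Pfkm, Aldoa, Gapdh, Pgk1, Pkm, Ldha). Some of the windows overlap, and the Aldoa matches are the same site, counted in each window that holds it. The TATA letters TATAAA stood in none, against 13.6% of all promoters. These are matches of letters in a window, not measured sites.

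By fitted values all 10 genes had less transcript in type I fibres, in untrained and in trained mice alike. In the average over both training states 9 of 10 passed the test (edgeR quasi-likelihood, adjusted p under 0.05 over all 11747 genes tested), where 0.826% of all genes were called lower. Eno3 was 14.6-fold and Ldha 11.3-fold lower in type I fibres, and the other 7 were between 3.98-fold (Pgk1) and 6.22-fold (Aldoa) lower. Gpi1, at 2.53-fold, did not pass. The 10 genes together took 0.694 ± 0.160% of reads in untrained type I fibres and 2.30 ± 0.196% in untrained type IIb fibres (SD, n = 3 each), and 0.421 ± 0.104% and 2.87 ± 1.38% in trained mice. Every member had at least 503 reads in every library, so none passed the filter on low counts only through the fibre type in which it was high.

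**Figure D1:**
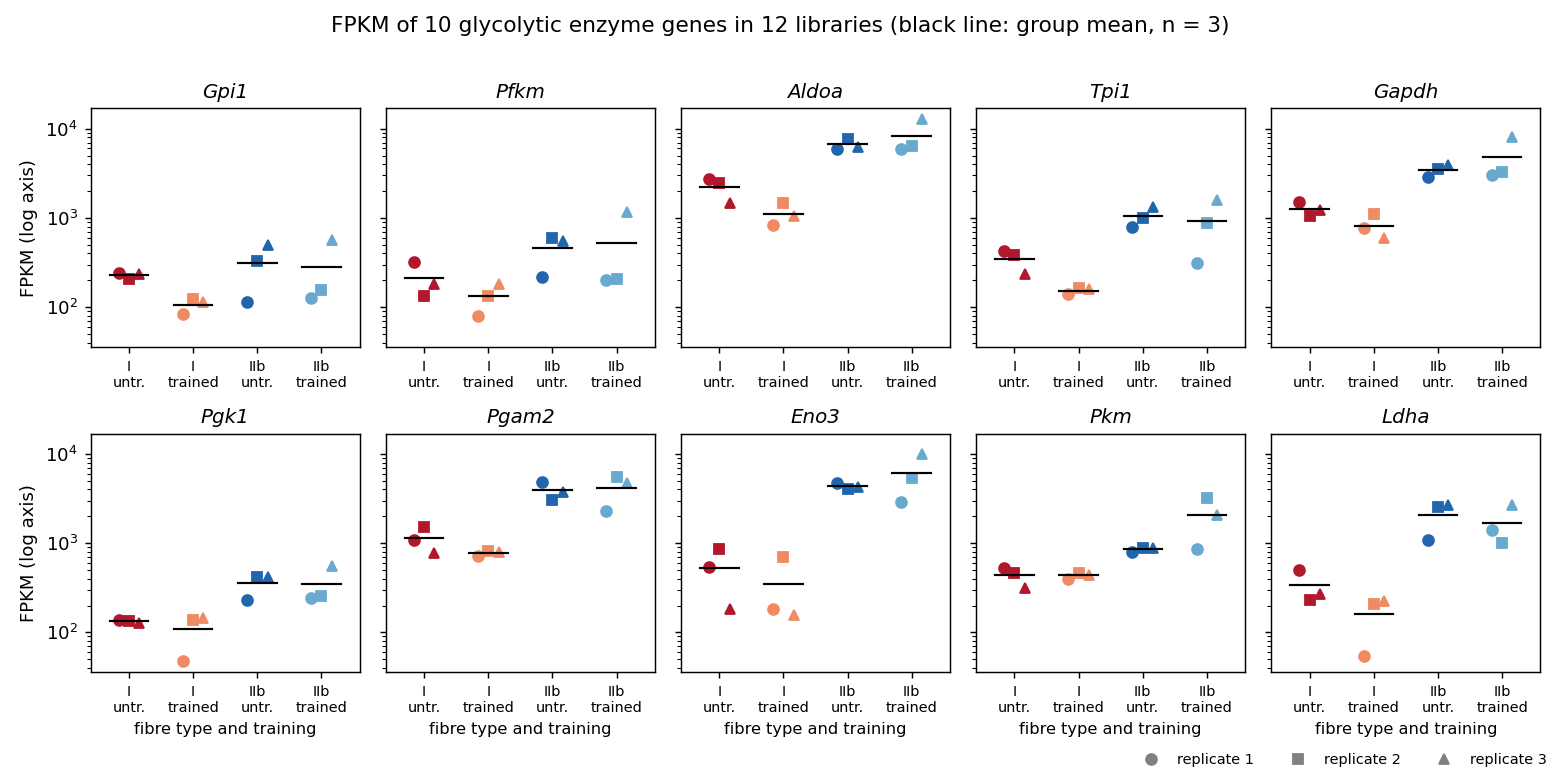
FPKM (log axis) of each gene in the 12 libraries, by fibre type and training; symbols are replicates and black lines group means (n = 3). Type IIb libraries lie above type I libraries for Aldoa, Gapdh, Pgk1, Pgam2, Eno3, Pkm and Ldha without overlap, while Gpi1, Pfkm and Tpi1 overlap, and trained type IIb replicate 3 is the highest library for 8 of the 10 genes.

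The first steps prepare the hexose and split it. Gpi1 (chromosome 7, 34201330 to 34230336, mm10) isomerises glucose 6-phosphate to fructose 6-phosphate. Its FPKM was 239, 208 and 237 in untrained type I libraries and 115, 324 and 491 in untrained type IIb libraries. The groups overlapped, and the log2 fold change of -1.001 ± 0.66 (SE; type I minus type IIb here and below) had an adjusted p of 0.567 in edgeR. In trained mice Gpi1 was at 82.9, 123 and 114 in type I and at 126, 157 and 571 in type IIb libraries, without overlap and with an adjusted p of 0.609 in edgeR (log2 -1.67 ± 0.67). Pfkm (chromosome 15, 98092589 to 98132451) is the muscle phosphofructokinase, the committed and most regulated step. It stood at 322, 132 and 179.6 FPKM in untrained type I and at 215, 602 and 557 in untrained type IIb libraries, an overlap by a single type IIb library (edgeR log2 -1.72 ± 0.62, adjusted p = 0.230). In trained mice it was at 79.4, 133 and 184 against 199, 207 and 1158, which did not overlap and did not pass (log2 -2.31 ± 0.63, adjusted p = 0.193). Pfkm passed only in the average of both states, at -2.01 ± 0.44 with an adjusted p of 0.0195 in edgeR, and not without untrained type I replicate 3, untrained type IIb replicate 2 or trained type IIb replicate 3.

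Aldoa (chromosome 7, 126795234 to 126800751), the aldolase that splits fructose 1,6-bisphosphate, was the most abundant member by FPKM. It was at 2764, 2448 and 1479 FPKM in untrained type I libraries and at 5962, 7755 and 6251 in untrained type IIb libraries, and at 824, 1463 and 1041 against 5975, 6385 and 12789.6 in trained mice. Every type IIb library was above every type I library. It was lower in type I fibres by edgeR in untrained mice (log2 -2.09 ± 0.40, adjusted p = 0.0186), in trained mice (-3.19 ± 0.42, 0.000308) and on average (-2.64 ± 0.29, 1.65e-05). Tpi1 (chromosome 6, 124810586 to 124814296) interconverts the triose phosphates made by aldolase. Its FPKM was 424, 384 and 235 against 795, 990.0 and 1324 in untrained mice, and 138, 162 and 159 against 308, 880.0 and 1598 in trained mice. Within each training state the fibre types did not overlap, although trained type IIb replicate 1, at 308, was below 2 untrained type I libraries. Tpi1 passed in trained mice (edgeR log2 -2.90 ± 0.58, adjusted p = 0.0207) and on average (-2.49 ± 0.40, 0.00132) but not in untrained mice (-2.08 ± 0.56, 0.158).

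The later steps yield NADH and ATP. Gapdh (chromosome 6, 125161715 to 125166467), the dehydrogenase often used as a reference gene for normalisation, was at 1515, 1039 and 1241 FPKM in untrained type I against 2857, 3529 and 3877 in untrained type IIb libraries, and at 767, 1107 and 591 against 3001, 3237 and 8104 in trained mice. The lowest type IIb library was above the highest type I library. Gapdh was lower in type I fibres in untrained mice (edgeR log2 -1.99 ± 0.44, adjusted p = 0.0494), in trained mice (-2.73 ± 0.45, 0.00368) and on average (-2.36 ± 0.31, 0.000167). Pgk1 (chromosome X, 106187100 to 106203699), the first ATP-producing kinase, was at 138, 134 and 128 against 231, 418 and 415 in untrained mice and at 47.2, 138 and 143 against 240.1, 253 and 548 in trained mice. Its groups did not overlap either, and it passed only on average (edgeR log2 -1.99 ± 0.40, adjusted p = 0.0107), not in untrained (-1.95 ± 0.57, 0.230) or trained mice alone (-2.03 ± 0.57, 0.221).

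Pgam2 (chromosome 11, 5801640 to 5803733) is the muscle phosphoglycerate mutase. It was at 1084, 1529.8 and 777 FPKM against 4885, 3062 and 3772 in untrained mice, and at 717, 824 and 789 against 2297, 5485 and 4748 in trained mice, with no overlap. Pgam2 was lower in type I fibres in untrained mice (edgeR log2 -2.24 ± 0.45, adjusted p = 0.0250), in trained mice (-2.78 ± 0.46, 0.00416) and on average (-2.51 ± 0.32, 0.000129). Eno3 (chromosome 11, 70657202 to 70662513), the muscle enolase, had the largest fold difference: 545, 859.7 and 181 FPKM against 4745, 4035 and 4292 in untrained mice, and 183, 696 and 157 against 2875, 5322 and 10003 in trained mice. The type I libraries themselves spread over a wide range, with replicate 2 the highest in each training state, and the spread between type IIb libraries was smaller in relation to their mean. Eno3 was lower in type I fibres in untrained mice (edgeR log2 -3.46 ± 0.73, adjusted p = 0.0382), in trained mice (-4.28 ± 0.75, 0.00833) and on average (-3.87 ± 0.52, 0.000280).

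Pkm (chromosome 9, 59656368 to 59679375), pyruvate kinase, was at 529, 462 and 313 FPKM in untrained and at 401, 468 and 437 in trained type I libraries. It was at 788, 893 and 874 in untrained type IIb libraries and at 850.0, 3235 and 2056 in trained ones, all above type I. Pkm passed in trained mice (edgeR log2 -2.62 ± 0.52, adjusted p = 0.0207) and on average (-2.05 ± 0.36, 0.00316), and not in untrained mice (-1.48 ± 0.50, 0.230). Its exons overlap another gene on the same strand over 15.3% of their length, and those of Pfkm over 10.2%, so some reads could belong to either gene. The exons of Gpi1 overlap a gene on the opposite strand over 11.5% of their length. Library kits did not mark strand, so the same holds for Gpi1. Ldha (chromosome 7, 46841475 to 46855627), the lactate dehydrogenase subunit of fast muscle, was at 504, 232 and 271 FPKM against 1080.1, 2541 and 2663 in untrained mice, and at 54.0, 209 and 224 against 1394, 1004 and 2702 in trained mice. The type I libraries were all below the type IIb libraries, with trained replicate 1 the lowest of the 12. Ldha was lower in type I fibres in untrained mice (edgeR log2 -3.22 ± 0.56, adjusted p = 0.00747), in trained mice (-3.77 ± 0.57, 0.00157) and on average (-3.50 ± 0.40, 2.64e-05).

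Counted over the members, 5 of 10 passed in untrained mice, where 0.204% of all genes were called lower, and 7 of 10 in trained mice, where 0.298% were. The median log2 fold change of the 10 genes was -2.04 in untrained and -2.76 in trained mice, against 0.85 and 0.21 over all genes tested, so that the members lay 2.89 and 2.97 below that median. Scaling by library totals in place of TMM moved the median of all genes to 1.47 and 0.69 and that of the members to -1.49 and -2.48, with all 10 members still negative, and called 35 genes higher and 14 lower in untrained mice where TMM called 30 and 24. By FPKM, type I libraries were all below type IIb libraries for 8 of 10 members in untrained mice (2.67% of all genes), for 10 of 10 in trained mice (2.45%) and for 7 of 10 over all 6 against 6 libraries (0.749%). After TMM scaling of the FPKM these counts were 9, 10 and 9 of 10. The shares of all genes were then 4.89%, 3.76% and 1.07%, and Gpi1 was the member that still overlapped. The 4 steps from Gpi1 to Tpi1 had a median of -2.25 in the average over training, and the 6 from Gapdh to Ldha a median of -2.44.

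The count in untrained mice rested on few libraries. It went from 5 to 0 without untrained type I replicate 3, although 9 members kept an unadjusted p under 0.05 in edgeR. It went to 2 without untrained type I replicate 1 or any untrained type IIb library, and to 3 without untrained type I replicate 2. DESeq2 with all libraries called 2 and limma-voom 8. Lower calls over all genes moved too. They were 24 of 11747 in the main fit, 8 of 12437 without untrained type I replicate 3, 68 in DESeq2 and 240 in limma-voom. In trained mice the count of members went from 7 to 4 without trained type I replicate 1 or trained type IIb replicate 2. It went to 3 with limma-voom and to 1 in edgeR on the compared groups alone. Lower calls over all genes were 35 in the main fit and 19, 16, 36 and 18 in these 4 fits. Without the 3 libraries richest in endothelial markers, 0 members were called in untrained mice (6 at an unadjusted p under 0.05 in edgeR), 6 in trained mice and 5 on average; that fit has 1 untrained type I library, whose spread is assumed to be that of the other groups. Aldoa, Gapdh, Pgam2, Pkm and Ldha were called in the average under each of the 12 leave-outs and each of the 10 other settings tried.

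**Figure D2:**
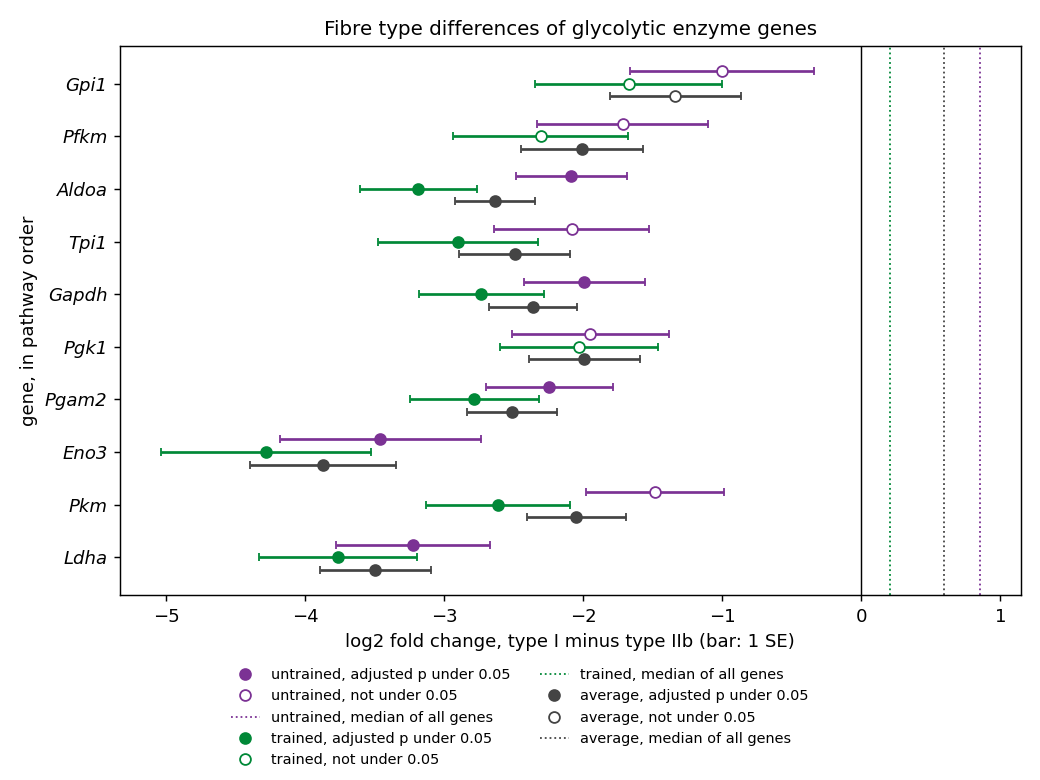
Log2 fold changes, type I minus type IIb (horizontal axis, bars 1 SE), of the 10 genes in pathway order, in untrained mice, trained mice and the average of both; filled points have an edgeR adjusted p under 0.05 and dotted lines mark the median of all genes. All points lie left of 0, with Eno3 and Ldha farthest out and Gpi1 nearest, and 5, 7 and 9 points are filled.

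The order of the transcripts differed between fibre types. By mean FPKM over 6 libraries, type I fibres ran Aldoa, Gapdh, Pgam2, Eno3, Pkm, Tpi1, Ldha, Pfkm, Gpi1 and Pgk1, from 1670 ± 774 to 121 ± 36.7 (SD), and only the steps from Pgam2 to Eno3 and from Pkm to Tpi1 exceeded the larger SD of the pair. Type IIb fibres ran Aldoa, Eno3, Gapdh, Pgam2, Ldha, Pkm, Tpi1, Pfkm, Pgk1 and Gpi1, from 7519.7 ± 2666 to 297 ± 198, and there only the steps from Pgam2 to Ldha and from Tpi1 to Pfkm did. The order depends on the gene length used. The deposited FPKM take 875 bases for Eno3 and 1036 for Aldoa, where all exons of a public annotation cover 1739 and 2911, and with the latter lengths Pgam2 ranked 1 and Aldoa 2 in both fibre types.

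As a share of the members' summed FPKM, which no scaling between libraries can change, Eno3 made up 7.44 ± 3.97% in type I and 19.3 ± 2.67% in type IIb fibres (SD, n = 6), with ranges of 3.60 to 13.1% and 16.7 to 22.6% that did not overlap. Gpi1 went the other way, at 3.04 ± 0.848% and 1.08 ± 0.570%, also without overlap. The other 8 members overlapped, among them Aldoa, with 29.4 ± 3.59% and 28.8 ± 3.91%. Between training states, Pkm and Tpi1 were the members whose shares did not overlap in either fibre type. Pkm was at 6.20 to 6.56% in untrained and 8.79 to 12.2% in trained type I libraries, and at 3.57 to 3.70% and 4.64 to 12.4% in type IIb libraries. Tpi1 was lower in trained libraries, at 3.04 to 4.20% against 4.66 to 5.26% in type I and at 1.78 to 3.61% against 3.67 to 5.40% in type IIb. These shares were looked at after the values were seen, they add up to a fixed sum, and none was tested. They also rest on the gene lengths behind the deposited FPKM, and other lengths can change which shares overlap. The Tpi1 gap in type IIb fibres, 3.61 against 3.67%, is narrow, so that separation is stated for the deposited lengths only.

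**Figure D3:**
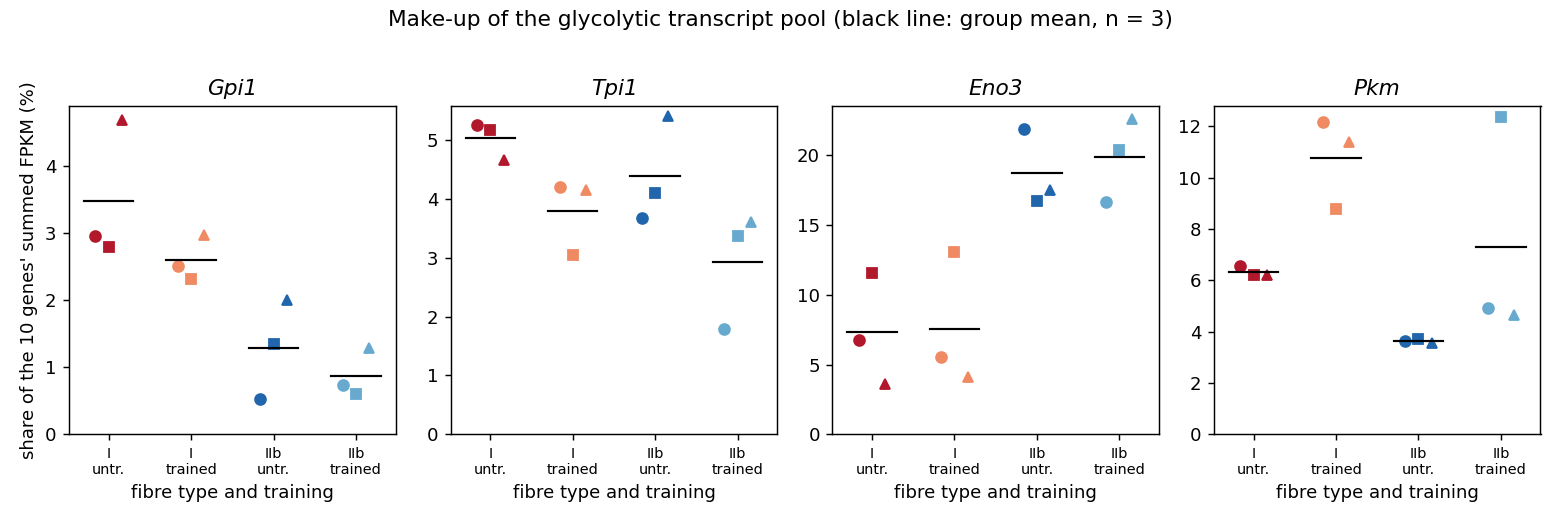
Share of the 10 genes' summed FPKM (vertical axes, %, each from 0) taken by Gpi1, Tpi1, Eno3 and Pkm in each library; symbols are replicates and black lines group means (n = 3). With the deposited gene lengths, Gpi1 is higher and Eno3 lower in all 6 type I libraries. In each fibre type all trained libraries are then above the untrained ones for Pkm and below them for Tpi1.

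The subunit make-up of lactate dehydrogenase transcripts was nearly reversed between fibre types. Ldha made up 19.7, 8.29 and 10.1% of the summed FPKM of Ldha and Ldhb in untrained type I libraries and 1.30, 7.73 and 9.21% in trained ones, against at least 99.4% in each of the 6 type IIb libraries. The difference of -90.5 percentage points had p = 0.005 in a two-sided exact permutation test within training states, whose 400 arrangements allow no smaller p, and an adjusted p of 0.015 over the 3 shares tested; it stayed between -92.2 and -89.3 points when any library was left out. Ldhb (chromosome 6, 142490249 to 142507957), the heart-type subunit, was at 2347 ± 263 FPKM in untrained type I fibres and at 2931 ± 1020 in trained ones (SD, n = 3). In type IIb fibres it was at 0.407 ± 0.154 FPKM in untrained mice, from 15 reads in all, and 231 of the 234 reads in trained mice were in replicate 3, the type IIb library with the most endothelial marker reads. Ldhb was higher in type I fibres by edgeR (adjusted p = 0.0186 in untrained mice, 0.0430 in trained mice and 0.00105 on average). Of the 11747 genes tested, 30, 28 and 130 were called higher in these comparisons. Unlike the 10 members, Ldhb passed the filter on low counts only through type I fibres, where it was high. These p-values therefore add no separate support for the difference. The call held in all 12 leave-outs for the average and in 3 of 12 for each training state alone, with adjusted p up to 0.366 and 0.271.

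For the other paired isoforms the muscle form prevailed in every library. Eno3 made up 88.0 to 99.7% of the enolase FPKM (with Eno1, the ubiquitous form, and Eno1b) in type I and 98.0 to 100% in type IIb libraries, ranges that overlapped (difference -5.14 points, exact permutation p = 0.03, adjusted 0.045). The difference was not called without trained type I replicate 3 or without any single type IIb library, with adjusted p between 0.0675 and 0.12. Eno1 itself had 797 of its reads in trained type IIb replicate 2, where it was at 106 FPKM, and at most 433 in any other type IIb library. Pgam2 made up at least 99.3% of the mutase FPKM in every library (with Pgam1; difference between fibre types -0.166 points, exact permutation p = 0.05, adjusted 0.05, not under the threshold).

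**Figure D4:**
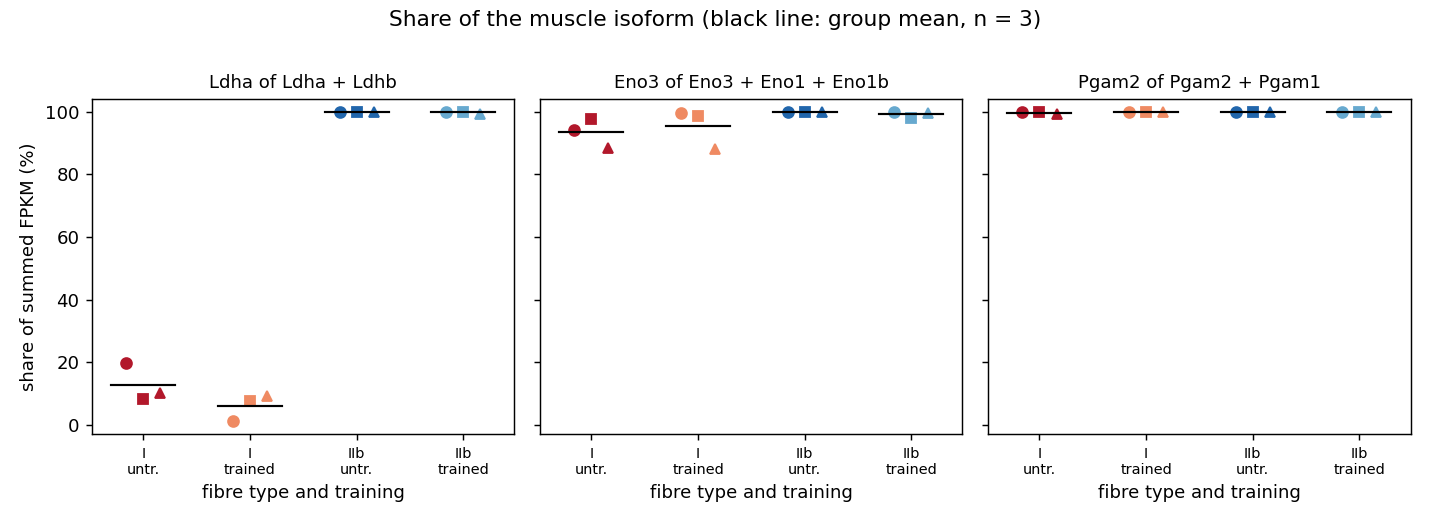
Share of Ldha, Eno3 and Pgam2 in the summed FPKM of their isoforms (vertical axis, %), by library, fibre type and training; black lines are group means (n = 3). Ldha lies between 1.30 and 19.7% in type I and above 99% in type IIb libraries, whereas Eno3 and Pgam2 stay at 88.0% or more in all 12.

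No member passed the test for training. In type I fibres 0 of 10 members and 0% of all genes were called by edgeR (345 genes at an unadjusted p under 0.05, none of them a member; DESeq2 called 59 genes and limma-voom 9, again no member). The members' median log2 fold change, trained minus untrained, was -0.28, equal to the -0.28 of all genes. The smallest p was that of Aldoa, at -0.63 ± 0.39 (adjusted p = 1 in edgeR). By FPKM all trained type I libraries were below all untrained ones for 4 members, Gpi1, Aldoa, Tpi1 and Ldha, against 8.2% of all genes. After TMM scaling this held for Gpi1 only, against 8.82% of all genes, so these separations depended on the scaling; with library totals all 10 fitted changes were negative, and with TMM Pkm and Pgk1 were above 0.

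In type IIb fibres 0 members and 0% of genes were called as well (965 at an unadjusted p under 0.05 in edgeR, 1 of them a member; DESeq2 364 genes and limma-voom 1, no member). The median was 0.28 against 0.36 over all genes. Pkm had the smallest p, with a log2 fold change of 1.50 ± 0.50 (edgeR adjusted p = 0.597). The value came from trained replicates 2 and 3, at 3235 and 2056 FPKM, while replicate 1 at 850.0 lay within the untrained range of 788 to 893; without trained replicate 2 it was 0.81 (edgeR adjusted p = 0.773). No member had all trained above all untrained FPKM (2.46% of all genes did), and Pkm did after TMM scaling (2.82% of all genes). The difference between the fibre types' training effects was tested as an interaction and called 0 members and 0% of genes in edgeR (1050 genes at an unadjusted p under 0.05, no member; DESeq2 390 genes and limma-voom 3, no member). All 10 interaction values were negative, with a median of -0.71 against -0.68 over all genes, and 6 of 10 were negative without the 3 libraries richest in endothelial markers. Aldoa had the smallest p here, at -1.10 ± 0.55 (edgeR adjusted p = 0.590).

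**Figure D5:**
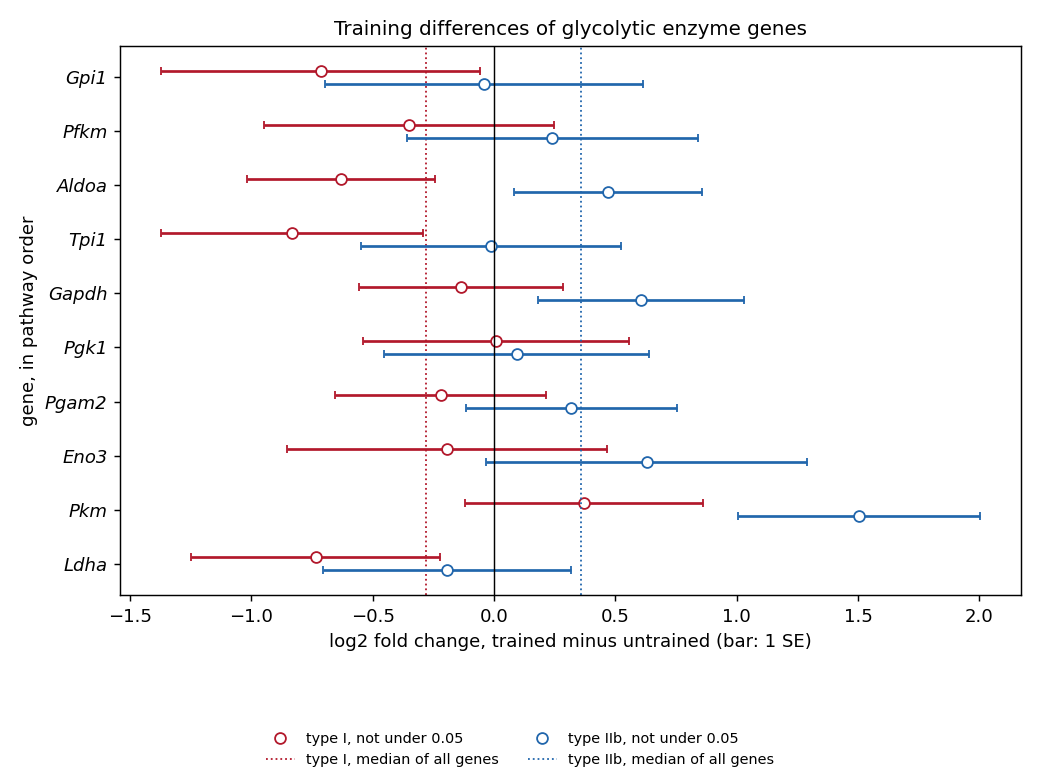
Log2 fold changes, trained minus untrained (horizontal axis, bars 1 SE), of the 10 genes in type I and type IIb fibres; dotted lines mark the median of all genes. No point has an adjusted p under 0.05, and Pkm in type IIb fibres, at 1.50, is the point farthest from 0.

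Of the neighbouring genes of the pathway, a list of 20 other isoforms and paralogues had 8 members that passed the filter. Ldhb, described above, was the only one called, higher in type I fibres in the 3 fibre type comparisons. In these, 30, 28 and 130 of all 11747 genes tested were called higher. The most abundant of the rest was Hk2, the muscle hexokinase that feeds the pathway, at 429.7 ± 270.4 and 381 ± 228 FPKM in untrained and trained type I fibres and at 140.5 ± 164 and 103 ± 77.7 in type IIb fibres. Its groups overlapped, and it was not called (average log2 1.25 ± 0.58, edgeR adjusted p = 0.279), while its fitted value was positive where those of all 10 members were negative. Of 21 regulators, branches and exits of the pathway, 19 were tested. In untrained mice 0 were called, and 1 was called lower in trained mice and 2 on average. Over all genes tested, 0.204%, 0.298% and 0.826% were called lower in these comparisons.

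Slc16a3, the lactate exporter MCT4 of fast fibres, was at 71.4, 23.5 and 34.1 FPKM in untrained and 26.0, 116 and 95.6 in trained type IIb libraries. In type I libraries it was at 4.36, 1.97 and 0.906 in untrained mice, and 1 read in all was counted in trained mice. It was lower in type I fibres in trained mice (edgeR adjusted p = 0.00202) and on average (0.000255). Gpd1, the glycerol 3-phosphate dehydrogenase that takes a triose phosphate out of the pathway, was at 12.5, 3.73 and 0.124 FPKM in untrained and 0, 1.53 and 0.491 in trained type I libraries, against 179.7, 89.3 and 60.0 and 30.7, 71.0 and 105 in type IIb libraries. It was lower in type I fibres on average (edgeR log2 -5.89 ± 1.17, adjusted p = 0.00944). Neither gene was called on average without the 3 libraries richest in endothelial markers (adjusted p = 0.159 for Slc16a3 and 0.189 for Gpd1). No gene of either list was called in the training comparisons or the interaction.

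The 10 genes ran together over the 12 libraries, as a description: Pearson's r between members' log2 CPM had a median of 0.898 and ranged from 0.58 (Gpi1 and Pkm) to 0.983 (Aldoa and Eno3). The libraries share the fibre type contrast and the scaling, so these values carry no test. The genes outside the list whose log2 CPM was most like the members' mean profile were Ak1 (r = 0.962), adenylate kinase, Atp2a1 (0.960), the fast calcium pump, Casq1 (0.947), the calcium store protein of fast fibres, Myoz1 (0.946), a Z-disc protein, and the predicted gene Gm4654 (0.945).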

How the data were processed

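RNA from myofibre pieces was sequenced in 12 libraries, 4 groups of 3. The deposited counts are whole reads per gene without normalisation; the deposited FPKM were scaled by the authors to gene length and library total, and differed from count over length and total by at most 0.362%. Reads were aligned with TopHat2 to mm10, per the submitters' processing notes; no source used here gives the counting program, the annotation or any version. Library kits did not mark strand, so overlapping genes on opposite strands cannot be told apart. Coordinates are those of the deposited tables.

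Genes passing filterByExpr (minimum count 10, minimum total 15) were fitted in edgeR 4.0.16 (R 4.3.3; TMM, robust quasi-likelihood, a mean per group, all 12 libraries), with Benjamini-Hochberg adjustment over all 11747 genes and calls at an adjusted p under 0.05. The 6 comparisons were fibre type in untrained mice, in trained mice and averaged, training in each fibre type, and their interaction. Isoform shares were tested by exact permutation of fibre labels within training states. Alternatives were RLE factors, no filter, DESeq2 1.42.0, limma 3.58.1 (voom with quality weights; trend on log2(FPKM + 1)), no robust prior, only the compared groups, a replicate block and leaving out each library. A further 4 were chosen after seeing the data: library totals, without the 3 libraries highest in endothelial markers, without the 2 with the fewest genes, and exon lengths of a public annotation.

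All 10 members are named; full statistics are given for fibre type differences, and otherwise for members past the threshold or with the smallest p. Of the 2 further lists, called genes and the most abundant are named, and the 5 genes most like the members by Pearson's r (log2 CPM, prior count 2). The members and lists were chosen with earlier results of these data known. A further list is not reported here.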

Additional observations from a re-analysis of the deposited data

How the results depend on the processing

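Over 39 gene-level fold changes and 883 refits, 760 kept their direction and side of the threshold, 118 lost the threshold, 5 gained it and 0 reversed. These were fibre type differences of the members, Ldhb, Slc16a3 and Gpd1, plus the smallest-p member of each training comparison and the interaction. Other training changes were left out. In type IIb fibres the members' median training change of 0.28 became -0.0693 without trained type IIb replicate 3. It was -0.0308 with limma on log2(FPKM + 1) and -0.133 without the 3 libraries highest in endothelial markers, and positive in the other fits. In untrained mice, where 5 of the 10 members were called, 3 of 10 were called with RLE size factors, 2 with DESeq2, 8 with limma-voom, 1 in edgeR without the robust prior, 3 in a fit of the compared groups alone, 3 with library totals, 0 without the 3 libraries highest in endothelial markers and 1 without the 2 libraries with the fewest genes; leaving out each library gave 0 to 5. In trained mice, with 7 called, limma-voom called 3 and edgeR on the compared groups alone 1, and leave-outs gave 4 to 7. On average, with 9 called, leave-outs gave 8 to 9. Library totals and limma on log2(FPKM + 1) each called 7, and DESeq2, no filter and no robust prior each called 8. RLE factors called 9, and limma-voom called 10, as did the fit without the 2 libraries with the fewest genes. Over the 10 settings other than leave-outs, Pfkm was called in 4 and Pgk1 in 6. Without the 3 libraries highest in endothelial markers the members' median log2 fold change was -2.17. No member was called for training or the interaction under any setting. The Eno3 share difference ranged from -6.21 to -3.27 points over leave-outs and the Pgam2 one from -0.229 to -0.0743, the latter called (adjusted p = 0.02) without trained type I replicate 1 or 2. The cause of these changes was not tested. Fits that leave libraries out differ from the main fit both in the number of libraries and in which ones they hold.

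Over all genes the calls varied more: higher and lower calls were 30 and 24 in untrained mice, 28 and 35 in trained mice and 130 and 97 on average in edgeR, against 963 and 68, 208 and 138, and 916 and 182 in DESeq2, 1625 and 240, 94 and 36, and 859 and 211 in limma-voom, and 305 and 37, 73 and 33, and 512 and 88 with limma on log2(FPKM + 1). With no filter, edgeR called 93 and 30, 45 and 36, and 219 and 91. Without untrained type I replicate 3 it called 14 and 8 in untrained mice. Replicate numbers gave no clear sign of pairing: 4 of 18 same-number pairs had a correlation of deviations over 0.1 (range -0.121 to 0.199). A library correlated best with its own number in 13 of 36 cases. With 3 libraries a group and no animal in the labels, this check cannot exclude pairing. With the replicate block 4, 6 and 8 members were called, and the whole-table calls on average were 72 and 66. The members had 503 to 202815 reads per library, and an effect of depth on their differences was not tested. For Ldhb and Slc16a3 the group near 0 limits any fold.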
